A study of Mus musculus with 17 samples.

Results

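Matrix glycoproteins, small matrix proteoglycans and genes typical of fibroblasts were followed in MCA205 tumours after chemotherapy. The set held 10 genes, Postn, Fn1, Sparc, Tnc, Fbn1, Dcn, Lum, Osr2, Igfbp4 and Wls, taken by annotated gene symbol from the 19057 symbols on the array. For 9 of the 10 genes the array carried probes under these symbols, 32 probes in all, and each of the 9 had a probe that was detected on 2 or more arrays. In total 28 of the 32 probes passed this filter, and 1 probe of Postn and 3 probes of Tnc did not. Fbn1, which encodes the microfibril protein fibrillin 1, had no probe under that symbol and is not analysed here.

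MCA205 is a transplantable fibrosarcoma line, a malignancy of fibroblast-like cells, and was grown in wild-type C57BL/6 mice. The tumours were injected with DX (doxorubicin, an anthracycline that damages DNA) or PBS (phosphate-buffered saline), and RNA of the whole tumour was put on 17 arrays. On day 2 there were 2 arrays of DX and 3 of PBS tumours. Day 7 had 3 arrays each of DX tumours that responded, DX tumours that did not respond, and PBS tumours, and day 10 had 3 arrays of DX tumours. Response was assigned by tumour shrinkage, and all day 10 samples were responders. PBS tumours of day 10 were not analysed here. The labels do not say that samples of a group came from separate animals, so p-values measure only the spread between these samples. In whole-tumour RNA, fewer cells of a type and less RNA per cell cannot be told apart, and transcripts of tumour cells and of host stroma are measured together.

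The extracellular matrix of a solid tumour is a mesh of collagens, glycoproteins and proteoglycans, laid down largely by fibroblasts and, in a sarcoma, also by the tumour cells. Fibronectin (Fn1) forms fibrils that cells grip through integrins, while periostin (Postn), SPARC and tenascin C (Tnc) are matricellular proteins, which tune adhesion and matrix assembly more than they bear load. Decorin (Dcn) and lumican (Lum) are small leucine-rich proteoglycans that bind collagen fibrils. Osr2 is an odd-skipped transcription factor of limb and palate mesenchyme, Igfbp4 a secreted protein that binds insulin-like growth factors, and Wls the carrier that brings Wnt proteins to the cell surface for secretion.

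Between 13728 and 15568 of 45281 probes were detected per array, and Pearson correlations between arrays of a group were 0.965 to 0.991. All 7 markers of mesenchymal and fibrosarcoma cells were detected on every array, with summed signals between 7530 and 12800. Host stroma is measured together with the tumour, so these mesenchymal markers do not single out fibrosarcoma cells. Among the responders, replicate 3 of day 7 and replicate 3 of day 10 stood apart by skeletal muscle markers, whose summed signals were 70000 and 57100. The sum was 967 or higher on all 3 day 7 responder arrays, 355 to 527 on the day 7 non-responder arrays and 350 to 464 on the day 7 PBS arrays, so muscle markers separated responders from both other groups of day 7. On the day 2 arrays the sum lay between 322 and 3370, and on the other two day 10 arrays it was 7330 and 992. Skin epithelium markers summed to 11600 on the same day 7 responder array and to 6320 on replicate 2 of the day 7 non-responders, against 702 to 891 on the day 7 PBS arrays. Adipocyte markers summed to 470 to 937 in day 7 responders, 362 to 477 in non-responders and 320 to 331 in PBS tumours of that day. Of the 9 markers with a probe, Plin4 was detected on 17 arrays, Lpl on 16, Adipoq on 4, Lep and Pparg on 1 each, and Cidec, Fabp4, Plin1 and Retn on none. The log2 signal of Lpl, which muscle and macrophages express too, was 7.19 to 8.86 in day 7 responders. It was 5.59 to 7.06 in day 7 non-responders and 4.89 to 5.78 in PBS tumours of that day. Responders overlapped with neither of these groups, while non-responders and PBS tumours overlapped. Macrophage and leukocyte markers summed to 8230 to 10000 in day 7 responders, 7750 to 8320 in day 7 non-responders and 9680 to 12000 in day 7 PBS tumours, and endothelial and pericyte markers to 1180 to 1340, 1110 to 1170 and 1060 to 1390 in the same 3 groups. The part of these tissues in the results was not tested.

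Among the members, Osr2 fell 2.05-fold in day 7 responders relative to day 7 PBS tumours, where 0.53% of all genes were called. Tnc fell 1.71-fold in PBS tumours of day 7 relative to PBS tumours of day 2, where 0.634% were called. No other member passed the threshold of an adjusted p under 0.05 in any of the 8 comparisons. The clearest shared pattern lay between the response groups of day 7. There Postn, Fn1, Osr2, Igfbp4 and Wls, each read from its brightest probe, were lower on every responder array than on every non-responder array. None of them passed the adjusted threshold. Wls probes of nearly the same brightness overlapped between these groups, as did the dimmer detected probes of Fn1 and Postn. Such a separation was shown by 5.42% of all genes, and the members were chosen with earlier results of these data known. The summed muscle markers were higher on every responder array than on every non-responder array, and their part in the pattern was not tested. Sparc, Tnc and Dcn stayed within overlapping ranges in that comparison, and Lum ran the other way, with a higher mean in responders.

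Levels below are log2 signals after background correction and quantile normalization across arrays, each gene being read from its brightest detected probe, and differences are on the same log2 scale with their standard errors (SE). One probe's level is not set against that of another probe, since probes differ in brightness. For scale, 66 of 12451 genes were called between responders and PBS on day 7, 53 higher and 13 lower, and 79 between PBS tumours of day 7 and day 2, 40 higher and 39 lower. Between responders and non-responders 0 of 12451 genes were called by limma (0%), with 711 at an unadjusted p under 0.05.

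**Figure D1:**
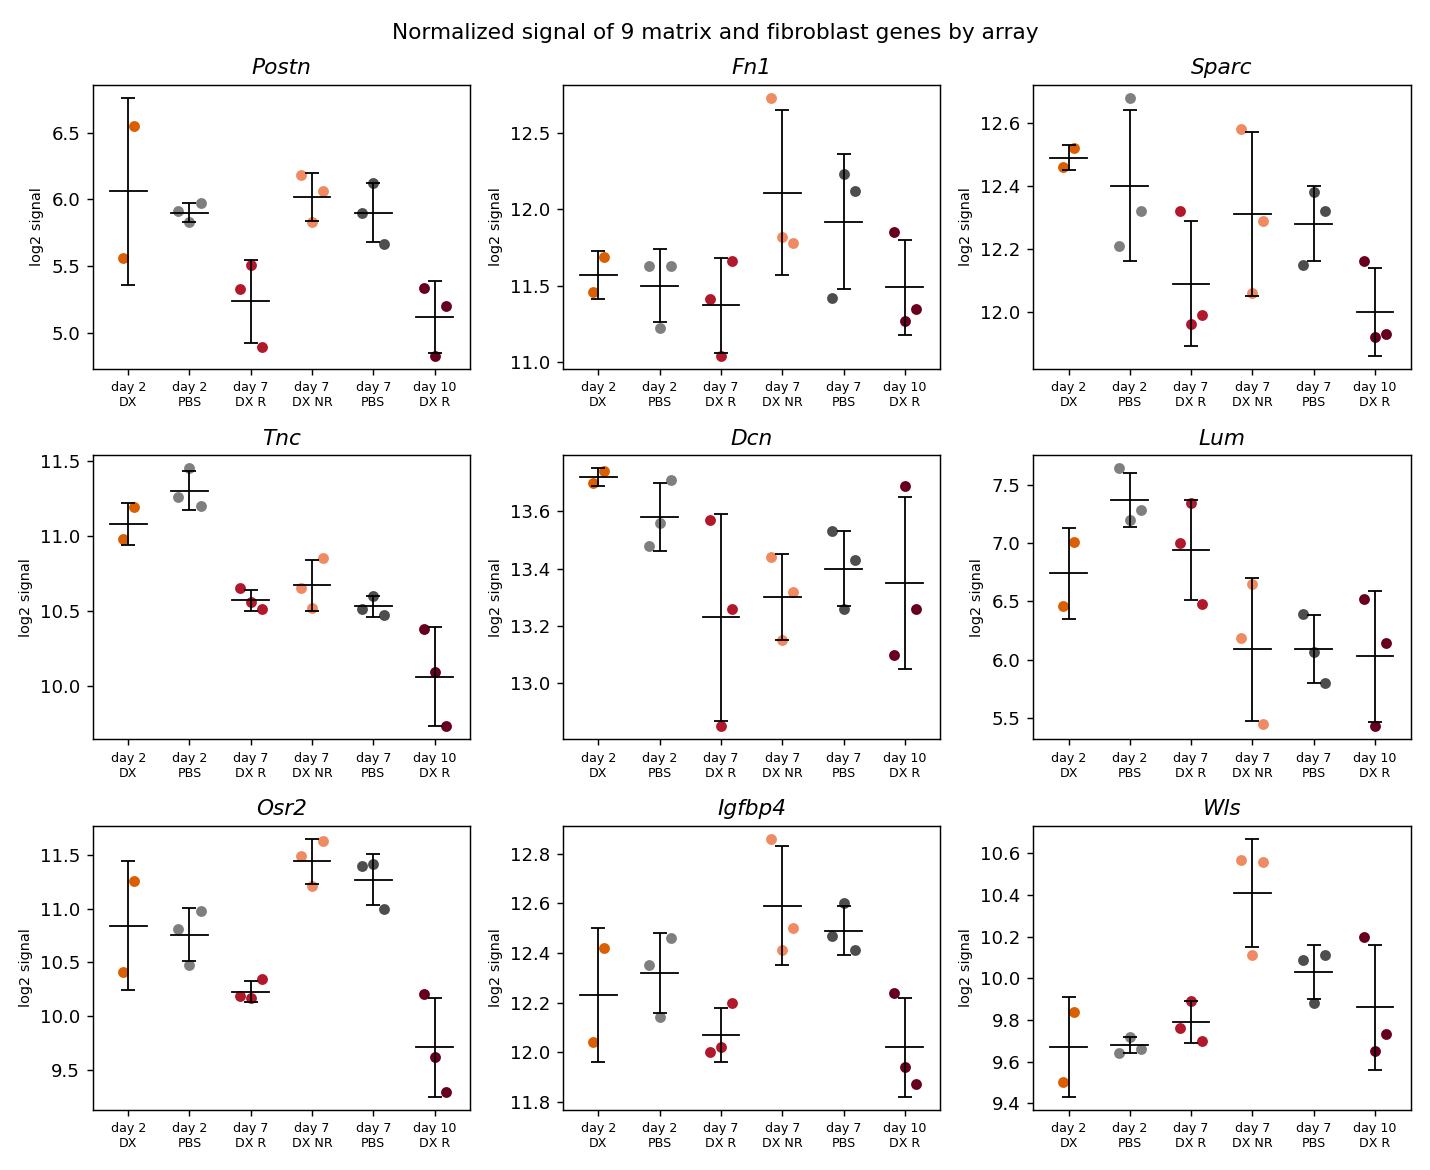
Normalized log2 signal (y axes, each panel on its own scale) of the 9 measured genes in the 6 groups of arrays (x axes); dots are arrays, horizontal lines are group means and bars are 1 SD. Osr2 lies between 10.17 and 10.35 on the day 7 responder arrays and at 11.00 or above on the day 7 non-responder and PBS arrays, and Tnc lies at 10.98 or above on the day 2 arrays and at 10.85 or below on all later ones.

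Osr2 had the widest range of group means of the 9 genes after normalization, 1.73 on the log2 scale. On day 2 its log2 signals were 10.41 and 11.26 after DX and 10.81, 10.48 and 10.98 after PBS. On day 7 they were 10.19, 10.17 and 10.35 in responders, 11.49, 11.21 and 11.63 in non-responders and 11.40, 11.42 and 11.00 in PBS tumours, and on day 10 they were 10.21, 9.62 and 9.30. The responders of both days therefore held the lowest values, and responders overlapped with neither non-responders nor PBS tumours on day 7. The fall in responders relative to PBS was -1.04 ± 0.22 (adjusted p = 0.0451), with 3 of 3 responder arrays below all PBS arrays. Responders differed from non-responders by -1.21 ± 0.22, a 2.31-fold difference. This was the smallest unadjusted p of all 12451 genes in that comparison, 3.02e-05, yet the adjusted p was 0.376. Non-responders differed from PBS by 0.17 ± 0.22 (adjusted p = 0.825), with a 95% interval of -0.29 to 0.63.

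The call of Osr2 against PBS sat close to the threshold and was lost under several settings. Its adjusted p was 0.505 with the BeadChip (the slide that carries several arrays) as a fixed block (-0.89), 0.154 under median scaling (-0.57) and 0.0909 without the 2 muscle-rich arrays, where the difference was as large (-1.09). Under median scaling the median of all genes was 0.37 in this comparison. Leaving out replicate 1, 2 or 3 of the responders gave adjusted p-values of 0.1, 0.168 and 0.117, and leaving out PBS replicate 1 or 2 gave 0.141 and 0.185. On BeadChip 3, the only slide that held both groups, responders differed from PBS by -1.21, with 1 array each. The other day 7 responder arrays were on BeadChip 1 and the other day 7 PBS arrays on BeadChip 2. On BeadChip 1, the slide with both response groups, responders (2 arrays) differed from non-responders (1 array) by -0.96.

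Igfbp4 was likewise low in day 7 responders, with smaller differences. On day 2 Igfbp4 had 12.04 and 12.42 after DX and 12.35, 12.14 and 12.46 after PBS. On day 7 it had 12.00, 12.02 and 12.20 in responders, 12.86, 12.41 and 12.50 in non-responders and 12.47, 12.60 and 12.41 in PBS tumours, and on day 10 it had 12.24, 11.94 and 11.87. The day 7 responder arrays lay below all arrays of both other groups. The difference was -0.52 ± 0.13 from non-responders (adjusted p = 0.687) and -0.42 ± 0.13 from PBS (adjusted p = 0.176). Under median scaling the difference from PBS was -0.01, so no fall was seen on that scale, where the median of all genes was 0.37. Within BeadChip 1 the difference from non-responders was -0.31. Its 2 highest-mean groups were thus the non-responders and the PBS tumours of day 7, and its lowest the day 10 responders.

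By its brightest probe, Wls separated the response groups but not responders from PBS, and its probes disagreed on this. It read 9.50 and 9.84 after DX and 9.64, 9.72 and 9.66 after PBS on day 2. On day 7 it read 9.76, 9.89 and 9.70 in responders, 10.57, 10.11 and 10.56 in non-responders and 10.09, 9.88 and 10.11 in PBS tumours, and on day 10 it read 10.20, 9.65 and 9.73. Responders of day 7 differed from non-responders by -0.63 ± 0.15 (unadjusted p = 0.000551, adjusted p = 0.687) without overlap, and by -0.31 within BeadChip 1. Against PBS the responder arrays overlapped the PBS range (-0.24 ± 0.15, adjusted p = 0.486). That difference turned to 0.23 under median scaling, where the median of all genes was 0.37. Non-responders and PBS overlapped as well, with a difference of 0.39 ± 0.15 (adjusted p = 0.362). Another Wls probe, with the same mean log2 signal over all arrays (9.92), read otherwise. By it responders overlapped non-responders (-0.28 ± 0.26) and lay below all PBS arrays (-0.69 ± 0.26), with non-responders at -0.41 ± 0.26 from PBS. A further probe, with a mean of 9.9, also overlapped between the response groups (-0.31 ± 0.16). In all, 3 of 5 Wls probes had responders below every non-responder array, and 3 of 5, 1 of them shared, had them below every PBS array.

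The Postn probe was detected on 14 of 17 arrays, the fewest among the 9 genes. It was detected on 2 of 3 day 7 responder arrays and 1 of 3 day 10 arrays, and on all arrays of the other groups. Log2 signals of Postn on day 2 were 5.56 and 6.55 after DX and 5.91, 5.83 and 5.97 after PBS, so the DX arrays lay on either side of the PBS arrays. On day 7 they were 5.33, 5.51 and 4.90 in responders, 6.18, 5.83 and 6.06 in non-responders and 5.90, 6.12 and 5.67 in PBS tumours. Responder arrays lay below every array of both other groups, and the differences were -0.78 ± 0.25 against non-responders (adjusted p = 0.712) and -0.65 ± 0.25 against PBS (adjusted p = 0.253). For this dim probe they were only -0.26 and -0.21 with the authors' processed values, and the same with no background correction. On day 10 the responders had 5.34, 4.83 and 5.20, again below all day 7 PBS and non-responder arrays.

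Fn1 had log2 signals of 11.46 and 11.69 after DX and 11.63, 11.22 and 11.63 after PBS on day 2. On day 7 it had 11.41, 11.04 and 11.66 in responders, 12.73, 11.82 and 11.78 in non-responders and 11.42, 12.23 and 12.12 in PBS tumours, and on day 10 it had 11.85, 11.27 and 11.35. Replicate 1 of the non-responders stood highest of all 17 arrays, and day 7 responders did not overlap with non-responders (-0.74 ± 0.25, adjusted p = 0.728). Without that replicate the difference was -0.43, and it was -0.47 within BeadChip 1. Day 7 responders did overlap with PBS tumours (-0.55 ± 0.25, adjusted p = 0.329), and on the shared BeadChip 3 that difference was -0.01. No pair of neighbouring groups in the order of its means was separated.

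By its brightest probe, Sparc differed little on day 7 and its groups overlapped. It had log2 signals of 12.46 and 12.52 after DX and 12.21, 12.68 and 12.32 after PBS on day 2. On day 7 the signals were 12.32, 11.96 and 11.99 in responders, 12.58, 12.06 and 12.29 in non-responders and 12.15, 12.38 and 12.32 in PBS tumours, and on day 10 they were 12.16, 11.92 and 11.93. Responders differed from non-responders by -0.22 ± 0.14 (adjusted p = 0.868) and from PBS by -0.19 ± 0.14 (adjusted p = 0.562). The difference from PBS turned to 0.23 under median scaling, where the median of all genes was 0.37. All 3 Sparc probes were negative in both comparisons. The dimmest of them gave -0.5 ± 0.24 and -0.65 ± 0.24, with overlapping arrays in both.

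Tnc separated by day, and its day 7 groups did not separate by treatment. Its log2 signals were 10.98 and 11.19 after DX and 11.26, 11.45 and 11.20 after PBS on day 2, and all of these exceeded every later array. On day 7 they were 10.65, 10.56 and 10.51 in responders, 10.65, 10.52 and 10.85 in non-responders and 10.51, 10.60 and 10.47 in PBS tumours, and on day 10 they were 10.38, 10.09 and 9.73. The 3 groups of day 7 overlapped, and the day 10 responders lay below all of them. PBS tumours of day 7 differed from those of day 2 by -0.77 ± 0.14 (adjusted p = 0.0129), with differences of -0.72 and -0.81 within BeadChips 2 and 3. The adjusted p was 0.0789 when Tnc was read as the mean of its detected probes (-0.58), 0.0753 without day 2 PBS replicate 1, 0.0511 without day 2 PBS replicate 2 and 0.0577 without day 7 PBS replicate 3.

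By its brightest probe, the group means of Dcn spanned 0.5 on the log2 scale. Arrays of day 2 read 13.70 and 13.74 after DX and 13.48, 13.56 and 13.71 after PBS. On day 7 they were 13.57, 12.85 and 13.26 in responders, 13.44, 13.15 and 13.32 in non-responders and 13.53, 13.26 and 13.43 in PBS tumours, and on day 10 they were 13.10, 13.69 and 13.26. Every pair of neighbouring groups overlapped. Responders differed from non-responders by -0.08 ± 0.16, with an interval of -0.41 to 0.25, and the sign was opposite under median scaling (0.11) and with the mean of the gene's probes (0.02). Under median scaling the median of all genes was 0.16 in this comparison.

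Lum, the other proteoglycan, did not follow Dcn, although both genes lie on chromosome 10. Its log2 signals were 6.46 and 7.01 after DX and 7.64, 7.20 and 7.28 after PBS on day 2. On day 7 they were 7.00, 7.34 and 6.48 in responders, 6.19, 6.65 and 5.45 in non-responders and 6.39, 6.07 and 5.80 in PBS tumours, and on day 10 they were 6.52, 5.43 and 6.14. All responder arrays of day 7 lay above the PBS arrays of that day (0.85 ± 0.32, adjusted p = 0.241), and responders overlapped with non-responders (0.85 ± 0.32, adjusted p = 0.788), with a difference of 0.26 within BeadChip 1. PBS tumours of day 7 lay below those of day 2 without overlap, with a difference of -1.29 ± 0.32 just short of the threshold (adjusted p = 0.0674). Under median scaling it was past the threshold (-1.84, adjusted p = 0.00224), but there 4964 of 12451 genes were called and the median of all genes was -0.54. It was also past the threshold with the mean of the gene's probes (adjusted p = 0.0454) and with the 2 PBS groups fitted alone (0.0183). Leaving out single PBS arrays gave adjusted p-values of 0.0788 to 0.274, the difference was -0.67 with the authors' processed values and with no background correction, not called in either, and it was -1.7 and -0.85 within BeadChips 2 and 3. Under median scaling Lum was also called in responders minus PBS (1.15, adjusted p = 0.0417), where 590 of 12451 genes were called and the median of all genes was 0.37.

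The promoters of 4 members are shown because Postn, Igfbp4 and Wls separated the response groups together and Tnc was called. The RefSeq promoter table (GRCm38.p6) matched 6 of the 10 genes, and the 250 bases before a transcript start are printed 5′ to 3′ on the gene's own strand, with matches to core promoter motifs in capitals. Both strands were searched for TATAAA (the TATA box), GGGCGG (the GC box), CCAAT and TGANTCA (the AP-1 site), which are present in 12.4%, 32.7%, 33.8% and 6.75% of all 32851 windows of this length.
Postn, second listed start, chr3:54360857-54361106, + strand: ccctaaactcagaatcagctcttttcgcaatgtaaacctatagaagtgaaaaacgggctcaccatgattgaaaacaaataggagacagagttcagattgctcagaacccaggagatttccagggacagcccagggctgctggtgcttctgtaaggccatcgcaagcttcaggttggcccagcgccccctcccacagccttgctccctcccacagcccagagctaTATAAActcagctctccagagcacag
Igfbp4, chr11:99040994-99041243, + strand: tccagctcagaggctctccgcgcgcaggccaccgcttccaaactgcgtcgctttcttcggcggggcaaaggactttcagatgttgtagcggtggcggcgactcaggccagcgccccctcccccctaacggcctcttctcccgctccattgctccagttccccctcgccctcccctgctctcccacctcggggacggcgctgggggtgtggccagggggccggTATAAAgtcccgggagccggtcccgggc
Wls, chr3:159839400-159839649, + strand: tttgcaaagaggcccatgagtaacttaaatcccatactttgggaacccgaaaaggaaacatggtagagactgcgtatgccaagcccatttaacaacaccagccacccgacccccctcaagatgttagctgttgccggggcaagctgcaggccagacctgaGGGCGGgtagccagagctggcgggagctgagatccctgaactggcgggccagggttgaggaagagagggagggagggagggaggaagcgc
Tnc, chr4:64047016-64047265, - strand: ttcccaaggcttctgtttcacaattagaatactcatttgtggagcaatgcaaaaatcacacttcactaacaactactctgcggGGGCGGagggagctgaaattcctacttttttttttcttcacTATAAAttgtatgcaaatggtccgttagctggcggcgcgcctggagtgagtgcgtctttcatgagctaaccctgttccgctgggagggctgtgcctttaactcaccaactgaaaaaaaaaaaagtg
Postn and Igfbp4 hold TATAAA with its first base 26 and 28 bases before the start. Wls holds a GC box and no TATAAA. The printed Tnc window, 1 of 2 listed, holds both, with TATAAA farther from the start, at position -126. The other Tnc window overlaps the printed one and holds the same GC box and the same TATAAA, at position -205 from its own start. Nearer that start it reads ctatataagcc, which the search for TATAAA does not match. The first listed Postn window and the Sparc window hold none of the 4 motifs. No motif searched is present in the printed windows of Postn, Igfbp4 and Wls alike, and a match is only a description of the letters.

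In GRCm38.p6 the loci of the members that separated the response groups lie on 4 chromosomes. Osr2 spans chr15:35296098-35303305, Igfbp4 spans chr11:99040005-99052655, Fn1 spans chr1:71585473-71653280, and Postn and Wls span chr3:54359267-54391041 and chr3:159839650-159938666. All 5 are annotated as protein-coding genes.

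Each of the 9 measured members was read from its brightest probe. Lower without overlap in responders than in non-responders were 5 of 9, against 5.42% of all 12451 genes, and 0 were higher without overlap. The members were chosen with earlier results of these data known, so these shares are descriptions and not tests. At an unadjusted p under 0.05, 5 members were lower and 1 was higher, against 5.71% of all genes in either direction. The median difference of the members was -0.52, against 0 over all genes tested. Relative to PBS, responders were lower without overlap in 3 members (7.98% of all genes) and higher in 1 member (11.2% of all genes), with a median of -0.24 against 0.01. Non-responders differed from PBS by a median of 0.13, against 0.02 over all genes, and 0 members were called, with 1 at an unadjusted p under 0.05 (10.8% of all genes), while 16 genes were called in all (0.129%). The 2 comparisons with PBS share the same PBS arrays. With the 3 responder and 3 non-responder arrays fitted alone, Osr2 was the 1 gene called between them (adjusted p = 0.0241).

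**Figure D2:**
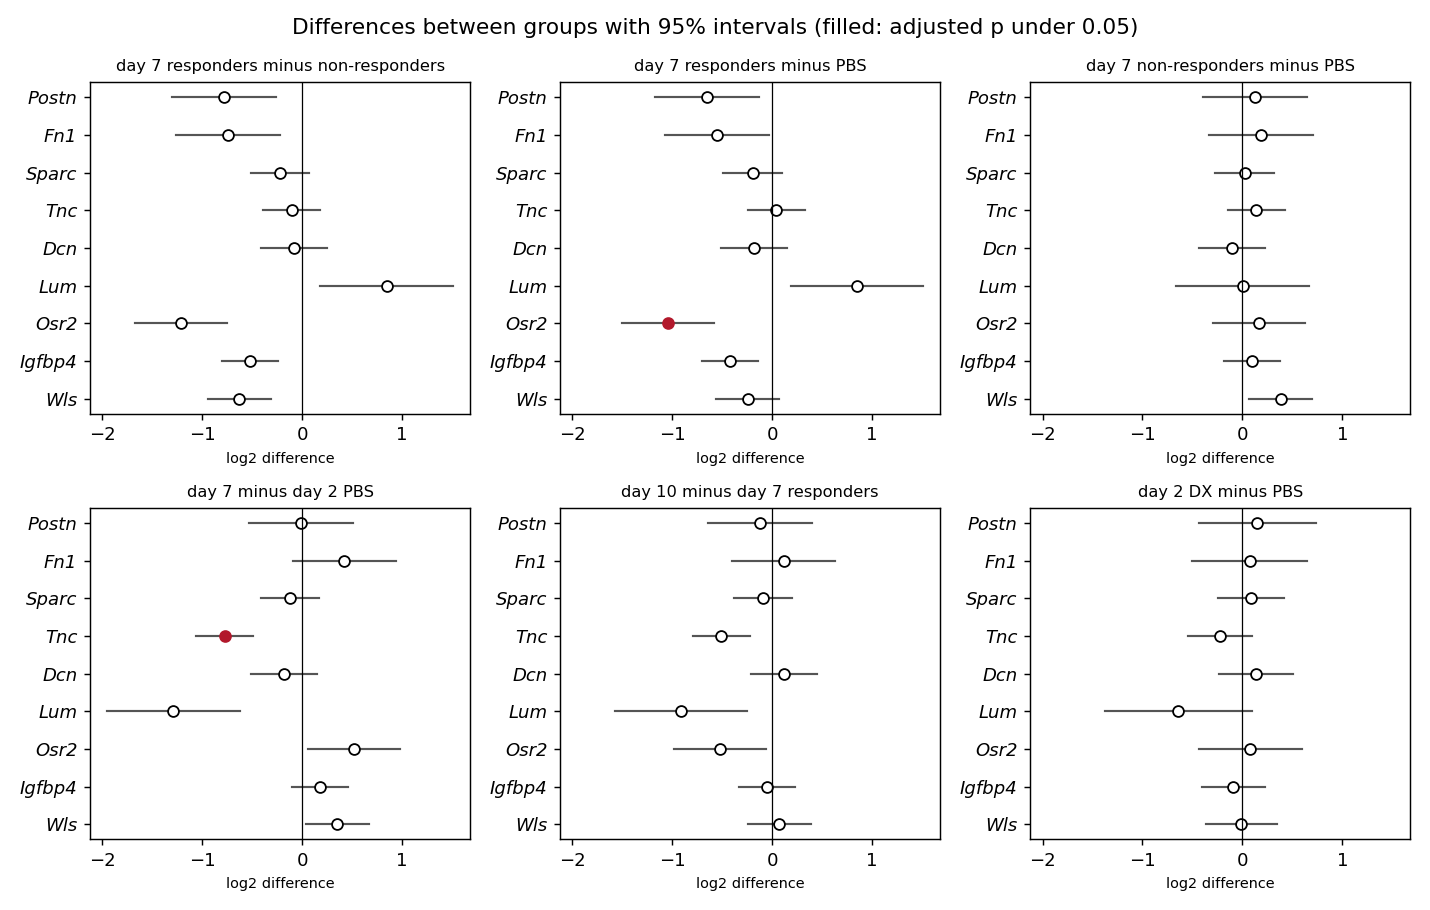
Differences in log2 signal (x axes) of the 9 genes (rows) in 6 comparisons (panels), with 95% intervals; filled points passed an adjusted p of 0.05. In the panel of responders minus non-responders, the 5 genes Postn, Fn1, Osr2, Igfbp4 and Wls lie between -1.21 and -0.52 and Lum lies at 0.85. The filled points are Osr2 in responders minus PBS (-1.04) and Tnc in day 7 minus day 2 PBS (-0.77).

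Without drug, Tnc was the 1 member called between the days, and 5 of 9 members overlapped. Between PBS tumours of day 7 and day 2, Tnc and Lum were lower without overlap (12.1% of all genes) and Osr2 and Wls were higher without overlap (10.5% of all genes). The differences of Osr2 and Wls were 0.52 ± 0.22 and 0.35 ± 0.15 (adjusted p = 0.284 and 0.286), and they turned to -0.03 and -0.26 under median scaling, where the median of all genes was -0.54. The members' median difference was -0.01, against -0.02 over all genes.

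On day 2, 0 of 9 members were called between DX and PBS tumours by limma and 0 had an unadjusted p under 0.05 (6.91% of all genes), while 76 of 12451 genes were called (0.61%), 66 higher and 10 lower. Tnc and Lum lay lower on both DX arrays than on all PBS arrays (15.9% of all genes did), with differences of -0.22 ± 0.15 and -0.64 ± 0.35 (adjusted p = 0.943 and 0.863). With 2 and 3 arrays the interval of Osr2 ran from -0.43 to 0.6, so differences up to these bounds in either direction could not be told from 0.

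With both response groups of day 7 pooled against PBS, 37 genes were called (0.297%), 30 higher and 7 lower, and 0 members, of which 1 had an unadjusted p under 0.05 (14.2% of all genes). That member was Osr2, at -0.43 ± 0.19 (adjusted p = 0.309). The difference between the DX effects of day 7 and day 2 was called for 28 genes (0.225%), 11 positive and 17 negative, and for 0 members. The largest member value was that of Lum, 1.06 ± 0.45 (adjusted p = 0.545), where the DX difference was 0.43 on day 7 and -0.64 on day 2.

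Between responders of day 10 and of day 7, 1 of 12451 genes was called (0.00803%), and 0 members were called by limma, with 3 at an unadjusted p under 0.05 (3.92% of all genes). Tnc had a difference of -0.51 ± 0.14 with all day 10 arrays below the day 7 arrays, a separation that 4.44% of all genes showed. Lum and Osr2 differed by -0.91 ± 0.32 and -0.52 ± 0.22, with overlapping arrays, and the adjusted p was 1 for all 3 genes. Igfbp4 and Wls differed by -0.05 and 0.07 between the days. For Postn no difference is given, since its probe was not detected on 2 of 3 day 10 arrays and 1 of 3 day 7 responder arrays.

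The probes of each gene gave a second reading of the same arrays. Between responders and non-responders both Osr2 probes (-1.29 and -1.21), both Igfbp4 probes (-0.58 and -0.52) and all 5 Wls probes (-0.63 to -0.28) had the same sign. The 4 Fn1 probes lay between -0.74 and -0.06 and the 2 Postn probes between -0.78 and -0.05. Responders lay below every non-responder array by both probes of Osr2 and of Igfbp4, but by 1 of 4 for Fn1 and 1 of 2 for Postn, the brightest in each case. The dimmer Postn probe was detected on 5 arrays. For Dcn, 2 of 4 probes had the sign of the brightest one, itself included. In responders minus PBS the Dcn probes ran from -0.76 to 0.94, and the probes at these ends separated the groups without overlap in opposite directions. The one at 0.94 is annotated to another transcript record than the other 3. In PBS tumours of day 7 minus day 2, all 4 Tnc probes (-0.77 to -0.23) and both Lum probes (-1.29 each) were negative.

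**Figure D3:**
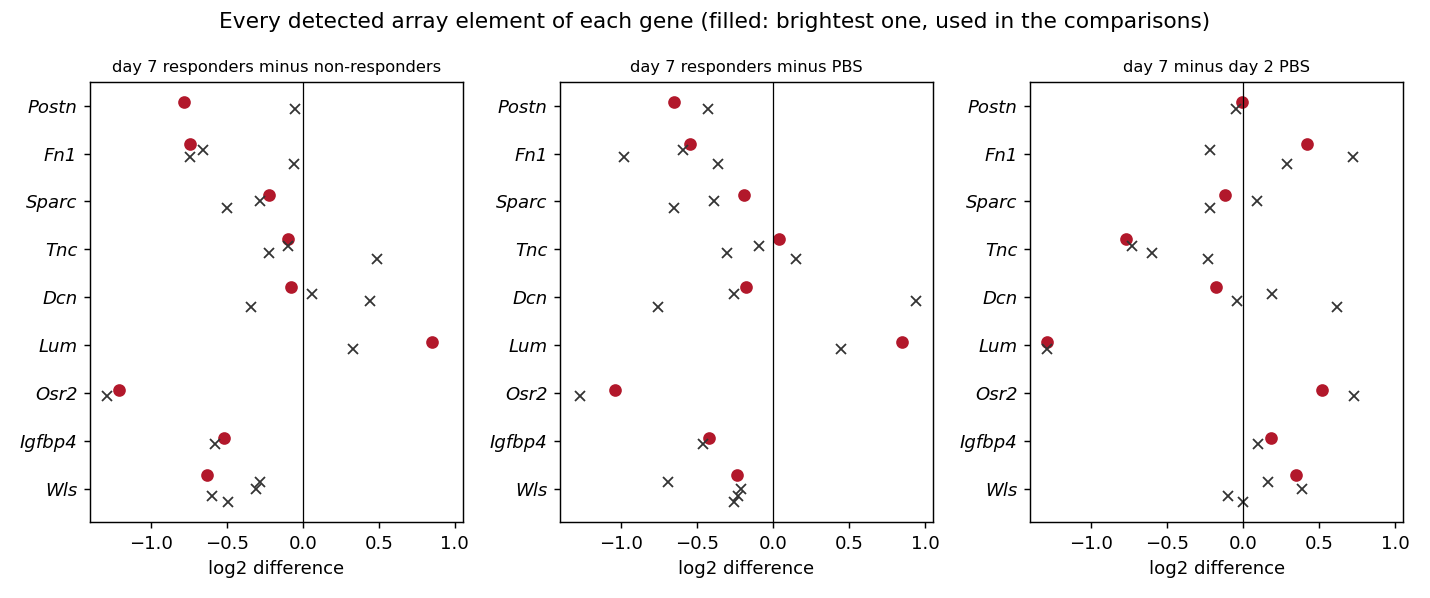
Differences in log2 signal (x axes) for every detected probe of the 9 genes (rows) in 3 comparisons (panels); filled circles are the brightest probe of each gene, used in the comparisons, and crosses are its other probes. The probes of Osr2, Igfbp4 and Wls lie on 1 side of 0 in the first 2 panels, and those of Dcn lie on both sides, from -0.76 to 0.94 in responders minus PBS. Under median scaling, which is not drawn, the brightest Wls probe had 0.23 in responders minus PBS, where the median of all genes was 0.37.

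Across the 17 arrays the pairs of members ranged from closely alike to unrelated, with no clear division. Osr2 and Igfbp4 had the closest profiles (Pearson r = 0.91, Spearman rho = 0.95), and r was 0.8 after group means were removed. Postn followed Osr2 (r = 0.83, and 0.61 within groups), and Fn1 followed Igfbp4 (r = 0.83, and 0.78 within groups). Sparc ran with Tnc (r = 0.72, and 0.53 within groups) and with Postn (0.68, and 0.28 within groups). Fn1 had r = 0.62 with Osr2 and 0.45 with Postn (0.37 and 0.22 within groups), so the 5 genes that separated the response groups were not all alike. Dcn had r = 0.1 with Osr2 and 0.01 with Lum. These are descriptions over arrays that share BeadChips and group structure, and no test was made of them.

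**Figure D4:**
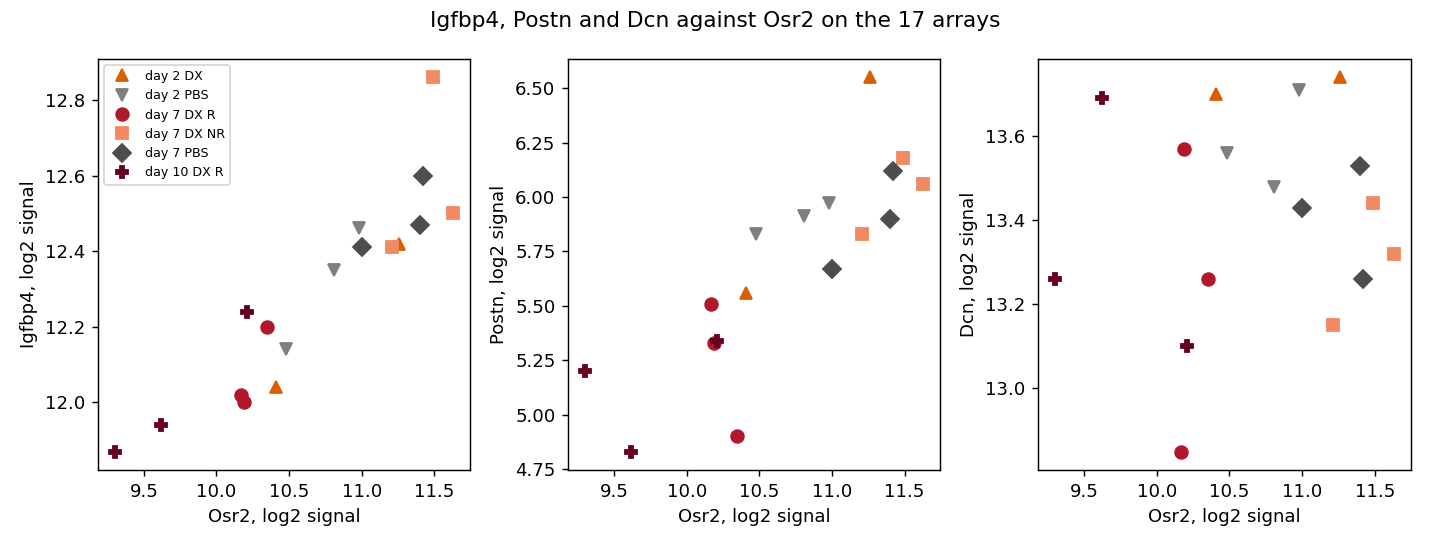
Log2 signals of Igfbp4, Postn and Dcn (y axes) against that of Osr2 (x axes) on the 17 arrays, with 1 symbol per group. Igfbp4 and Postn run along with Osr2 (r = 0.91 and 0.83) with the responders of day 7 and day 10 at the low end, and Dcn does not (r = 0.1).

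Among 10026 other genes with a symbol, those whose log2 signals over the 17 arrays were most like the mean standardized profile of the 9 members were Nrep (r = 0.924), the collagen chain gene Col5a2 (0.896), Dtx4 (0.889), Ccdc80 (0.887), the metalloproteinase gene Adamts12 (0.879) and the guidance receptor gene Robo1 (0.874). Nrep and Col5a2 were also among the 3 most like Postn (0.891 and 0.87), with Zfp606 (0.881). Closest to Osr2 were Arhgap24 (0.861), the lysosomal acetyltransferase gene Hgsnat (0.853) and the syndecan gene Sdc2 (0.853). Nrep averaged 9.74 in day 7 responders, 10.71 in non-responders and 10.90 in day 7 PBS tumours, and Col5a2 averaged 7.14, 8.00 and 7.86 in these groups. Both had their day 7 minimum in the responders, as Postn and Osr2 did, but they were picked for such likeness over these same arrays.

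Genes of the surrounding pathways were read from 9 lists with 143 entries, of which 102 were measured. In responders relative to PBS, 1 of the 102 rose, 0 fell, and the riser was Thy1, a surface glycoprotein of fibroblasts and T cells (1.14 ± 0.25, 2.21-fold, adjusted p = 0.0471). Thy1 had 10.24, 9.90 and 10.12 in day 7 responders, 9.43, 9.49 and 8.68 in non-responders and 8.53, 8.66 and 9.64 in day 7 PBS tumours. It was above both other groups on all responder arrays, opposite in sign to Osr2, and like Osr2 it lost its call with the BeadChip as a fixed block and without the muscle-rich arrays, where 0 genes were called in this comparison. In PBS tumours of day 7 relative to day 2, 2 of the 102 rose and 0 fell. They were P4ha1, a subunit of collagen prolyl hydroxylase (1.16 ± 0.20, adjusted p = 0.0119), and Igfbp6, a relative of Igfbp4 (0.57 ± 0.13, adjusted p = 0.0424). In the other 6 comparisons 0 of the 102 were called.

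By list, 0 of 21 other matrix glycoproteins were called in responders relative to PBS, with Fbln1 (fibulin 1) at 0.52 ± 0.12 (adjusted p = 0.0632) and a list median of 0.09 against 0.01 over all genes. Of 8 other proteoglycans 0 were called, with a median of 0.19 and with Prelp at 1.57 ± 0.37 (adjusted p = 0.0612), higher on all responder arrays than on the PBS arrays, as Lum was. Of 9 collagen cross-linking and processing genes 0 were called (median 0.01), with lysyl oxidase (Lox) at 0.77 ± 0.23. Of 15 fibroblast markers Thy1 was the 1 called, and the list median was -0.12. Of 11 integrin and syndecan receptors 0 were called (median -0.04), with the fibronectin receptor subunit Itga5 at 0.39 ± 0.17 and Sdc2 at -0.25 ± 0.10. Non-responders also lay above every day 7 PBS array in Fbln1 (0.3 ± 0.12), Prelp (0.88 ± 0.37), Lox (0.64 ± 0.23) and Itga5 (0.43 ± 0.17), none of them called. Lum stood at 0.01 ± 0.32 in non-responders minus PBS, and Sdc2 averaged 12.16 in non-responders and 12.11 in day 7 PBS tumours.

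Of 9 genes of the insulin-like growth factor axis 0 were called in responders relative to PBS, with a median of 0.33. Igf2, a ligand bound by Igfbp4, stood at 2.35 ± 0.78 (adjusted p = 0.194). Its log2 signals were 6.24, 6.22 and 9.36 in responders, the highest on the array rich in muscle transcripts, and 5.30, 4.85 and 4.64 in PBS tumours. Of 15 genes of Wnt secretion and signalling 0 were called (median -0.08), with the ligand Wnt6 at -0.64 ± 0.18 and the receptor Fzd2 at -0.82 ± 0.27. Wnt6 had 7.11, 7.21 and 7.47 in responders, 7.93, 7.62 and 7.93 in non-responders and 7.95, 7.97 and 7.80 in day 7 PBS tumours, below both other groups on all responder arrays. Of 8 regulators of matrix induced by TGF-beta 0 were called (median -0.06), with the ligand Tgfb2 at -0.62 ± 0.23, and of 6 odd-skipped and limb mesenchyme factors 0 were called (median -0.16), with the Osr2 paralogue Osr1 at -0.43 ± 0.31. In non-responders minus PBS Osr1 stood at -0.62 ± 0.31, also not called. Between responders and non-responders the list medians ran from -0.16 to -0.02, against -0.52 for the members. Members and lists were chosen with earlier results of these data known.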

How the data were processed

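Whole-tumour RNA of 17 samples was measured on 1-colour Illumina BeadChips. The authors deposited, per the file headers, a signal intensity on the linear scale and a detection p-value per probe, before normalization. A second deposited table of processed intensity values had the same lowest and highest value on every array and served as an alternative. Per the submitters' processing notes GenomeStudio 2011.1 was used; its settings are not given in the sources used here.

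Signals were background-corrected and quantile-normalized on the log2 scale with neqc (offset 16) of limma 3.58.1 in R 4.3.3. Differences of the dim Postn and Lum probes were larger on this scale than with no background correction. Postn in responders minus non-responders was -0.78, against -0.26. Lum in PBS tumours of day 7 minus day 2 was -1.29, against -0.67. The filter kept 17674 probes whose detection p-value was below 0.01 in 2 or more arrays, and the brightest was taken per gene, which left 12451 features, called genes here, 10035 of them with a symbol. The platform annotation gave 1 symbol to 34885 probes, several to 18 and none to 10378, and 34807 matched RefSeq by gene ID with 0 symbols changed.

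The means of the 6 groups were fitted together in limma with eBayes and its intensity trend (11 residual and 6.98 prior degrees of freedom). Adjusted p-values are Benjamini-Hochberg over all genes within each of 8 comparisons, and genes under 0.05 were called. Array number limits the precision. Groups and replicate numbers come from the sample titles. Members of the gene lists are named where called, up to 4 per list and comparison, and otherwise the 1 or 2 with the smallest p serve as examples. The 6 genes most like the members' mean and the 3 most like Postn and Osr2 are named.

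Alternatives were the authors' processed values, no background correction, median scaling, 2 other detection filters, the mean of a gene's probes, the compared groups alone, BeadChip and replicate blocks, leaving out each array, and leaving out the 2 arrays rich in muscle transcripts. The members and the gene and marker lists were chosen with earlier results of these data known.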

Additional observations from a re-analysis of the deposited data

How the results depend on the processing

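The replicate numbers did not pair the samples, since correlations of same-numbered arrays around their group means ran from -0.22 to 0.54 and not every pair exceeded 0.1. With the replicate block, genes called fell to 0 between responders and PBS, 23 for all DX on day 7, 17 for the difference of DX effects and 0 between day 10 and day 7, and 0 members were called between responders and PBS, where Osr2 stood at -1.04 (adjusted p = 0.0631). The call of Tnc held with the block (adjusted p = 0.0198).

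Osr2 in responders minus PBS lost its call with the authors' processed values and with no background correction (-0.98, adjusted p = 0.0536 in both), and with BeadChip as a random block (-1, adjusted p = 0.0697), beside the settings named with the gene. Members called between responders and PBS were then 0 in each case. Genes called were 29 between responders and PBS, 21 for all DX on day 7 and 0 between day 10 and day 7 with the processed values, and the same with no background correction. With BeadChip as a fixed block these 3 counts were 0, 6 and 0, and as a random block 23 were called between responders and PBS. Without the 2 muscle-rich arrays they were 0, 24 and 0. With no detection filter 51 were called between PBS tumours of day 7 and day 2 and 0 between day 10 and day 7. With the compared groups alone, 169 were called on day 2, 4 between non-responders and PBS, 1 between responders and non-responders (a member), 138 between the PBS days (2 of them members, Tnc and Lum) and 0 between day 10 and day 7.

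Median scaling moved the median of all genes to 0.37 in responders and 0.21 in non-responders minus PBS, 0.29 for all DX and for the difference of DX effects, 0.16 between response groups, -0.11 between day 10 and day 7 and -0.54 between the PBS days. Genes called became 590 between responders and PBS (99.5% higher, against 80.3%), 9 between non-responders and PBS, 337 for all DX (99.1% higher, against 81.1%), 4964 between the PBS days (0.383% higher, against 50.6%), 42 on day 2, 12 for the difference of effects (66.7% positive, against 39.3%) and 0 between day 10 and day 7. Then 4 members were called between the PBS days, Tnc, Lum, Sparc and Dcn. Signs turned in responders minus PBS for Dcn (0.21), Sparc (0.23) and Wls (0.23), in non-responders minus PBS for Dcn (0.1), in responders minus non-responders for Dcn (0.11) and Tnc (0.09), and for all DX in Dcn (0.15), Fn1 (0.18), Igfbp4 (0.16) and Sparc (0.25). They also turned between the PBS days for Fn1 (-0.08), Igfbp4 (-0.27), Osr2 (-0.03) and Wls (-0.26), between day 10 and day 7 for Fn1 (-0.01) and Wls (-0.06), on day 2 for Igfbp4 (0.02) and Wls (0.03), and in the difference of effects for Fn1 (0.02), Igfbp4 (0.14) and Sparc (0.06).

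With the mean of a gene's probes, signs turned for Dcn between the PBS days (0.15) and the response groups (0.02), for Fn1 (-0.07), Postn (-0.13), Sparc (-0.07) and Tnc (-0.07) in non-responders minus PBS, for Sparc between day 10 and day 7 (0.1), for Tnc in responders minus PBS (-0.05), all DX (-0.06) and response groups (0.02), and for Wls for all DX (-0.1) and the difference of effects (-0.08). BeadChip as a fixed block turned Dcn (0.03) and Lum (-0.09) in non-responders minus PBS, Sparc for all DX (0.01) and Wls on day 2 (0.06), and as a random block Lum (-0.02) and Wls (0.01) in these comparisons. Without the muscle-rich arrays Igfbp4 between day 10 and day 7 was 0.08. The cause was not tested. None of these turned values was called.

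Leaving out each array in turn gave 11 to 67 genes called on day 2, 0 to 78 in responders and 0 to 52 in non-responders minus PBS, 0 to 105 for all DX, 0 to 1 between day 10 and day 7, 8 to 57 between the PBS days and 1 to 35 for the difference of effects. Members called were 0 to 1 in responders minus PBS and 0 to 1 between the PBS days. Ranges that crossed 0 were, between day 10 and day 7, -0.06 to 0.29 (Dcn), -0.06 to 0.26 (Fn1), -0.17 to 0.02 (Igfbp4), -0.29 to 0.03 (Postn), -0.17 to 0.03 (Sparc) and -0.1 to 0.18 (Wls). On day 2 they were -0.06 to 0.19 (Fn1), -0.27 to 0.1 (Igfbp4), -0.34 to 0.51 (Osr2), -0.34 to 0.65 (Postn), -0.01 to 0.23 (Sparc) and -0.18 to 0.16 (Wls). In non-responders minus PBS they were -0.12 to 0.35 (Fn1), -0.04 to 0.19 (Igfbp4), -0.27 to 0.33 (Lum) and -0.11 to 0.15 (Sparc). For Dcn they were -0.25 to 0.11 between response groups and -0.35 to 0.01 in responders minus PBS, between the PBS days -0.12 to 0.1 (Postn) and -0.21 to 0.02 (Sparc), and Wls ran from 0 to 0.15 for all DX. In the difference of effects they were -0.26 to 0.11 (Igfbp4), -0.91 to 0.08 (Postn) and -0.09 to 0.25 (Wls). Osr2 in responders minus non-responders stayed between -1.32 and -0.96 under the settings run. Groups of 2 or 3 arrays limit what could be called, and the dim probes of Postn and Lum lie near background.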

Other observations

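The measured members had a higher log2 signal on replicate 2 than on replicate 1 of the day 2 DX tumours. The share of all genes that did so was not counted. Postn was at 6.55 and 5.56, Osr2 at 11.26 and 10.41, Lum at 7.01 and 6.46 and Igfbp4 at 12.42 and 12.04 on these arrays, while Dcn differed least (13.74 and 13.70). The array of replicate 2 sat on BeadChip 3 and that of replicate 1 on BeadChip 1, and their muscle markers summed to 2840 and 1490.

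On day 10 the 3 responders differed among themselves in the same genes. Replicate 1 was the highest of the 3 in Osr2 (10.21), Igfbp4 (12.24), Wls (10.20), Postn (5.34), Fn1 (11.85), Sparc (12.16), Tnc (10.38) and Lum (6.52), and the lowest in Dcn (13.10). Its muscle markers summed to 7330, against 992 and 57100 on the other two arrays.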
